A study of Drosophila melanogaster with 18 samples.

Results

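Among 17288 genes measured by RNA-seq in *Drosophila melanogaster* brains and ovaries, 48 nuclear genes of respiratory complexes II to V were examined. They were chosen by symbol: every nuclear gene whose FlyBase symbol starts with Sdh, UQCR-, COX followed by a digit, or ATPsyn. They comprise 29 subunits (4 of complex II, 6 of complex III, 8 of complex IV and 11 of complex V), the complex II assembly factor *Sdhaf3*, and 18 paralogs that carry the suffix L in their symbol (3 of complex II, 3 of complex III, 8 of complex IV and 4 of complex V). The rule used no measured value. Brains of females and of males, and ovaries, were dissected by hand from young *tud* mutant flies, *y*, *w* with *tud*1, *bw*, *sp* over the deficiency Df(2R)PurP133, which lack the Tudor protein. The control flies were *y*, *w* as well, carried the same *tud*1, *bw*, *sp* chromosome over the CyO balancer with a *w*+, hs-hid insertion, and are thus heterozygous for *tud*, although the labels call them wild-type. Each of the 6 groups (*tud* mutant female brain, control female brain, *tud* mutant male brain, control male brain, *tud* mutant ovary and control ovary) had 3 libraries, each brain library from many pooled brains. Because the genotypes differ in a whole second chromosome, and 16 of the 48 genes lie on that chromosome, effects of the balancer or the deficiency and of the loss of Tudor cannot be told apart.

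The mitochondrial respiratory chain passes electrons from nutrients to oxygen and uses the energy to pump protons, and ATP synthase lets the protons flow back to make ATP. Complex II (succinate dehydrogenase) takes electrons from succinate and belongs to the TCA cycle as well, complex III (cytochrome bc1) hands them to cytochrome c, complex IV (cytochrome c oxidase) passes them to oxygen, and complex V is the ATP synthase. Complex II is made of nuclear-encoded subunits alone, whereas complexes III, IV and V join nuclear-encoded subunits to a few made inside the mitochondrion. Brain tissue spends much of its ATP on ion pumping at synapses and axons, and the ovary supplies each egg with a large stock of mitochondria. In *Drosophila*, many nuclear genes of mitochondrial proteins have a duplicated copy, and a large share of such copies are expressed mainly in the testis, a tissue that was not profiled here.

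Values are FPKM, fragments per kilobase of transcript scaled for depth, so levels of different genes are compared per length. The depth of the libraries is not stated, nor whether the values were rescaled between them. Steps between low FPKM values gave rough depths of 5370000 to 15000000 fragments in the brain libraries and 21200000 to 29500000 in the ovary libraries, so values under about 1 FPKM rest on few fragments. If the values were rescaled, these depths can differ from the fragments sequenced. *tud* itself, the mutated gene, was at 9.10, 11.6 and 12.4 FPKM in *tud* mutant ovary, against 67.2, 61.0 and 63.2 FPKM in control ovary. In brain, *tud* was at 15.3, 32.3 and 14.1 FPKM in *tud* mutant female brain, against 31.4, 26.0 and 23.9 FPKM in control female brain, and at 17.4, 17.9 and 12.9 FPKM in *tud* mutant male brain, against 36.2, 20.2 and 20.6 FPKM in control male brain. The ovary libraries thus separate by genotype, and the library labelled *tud* mutant female brain replicate 2 lies among the controls for this gene. That library, by its *tud* level, and control male brain replicate 2, by its roX2 level, are called the 2 libraries that stand apart. Control male brain replicate 2 had 378 FPKM of the male-specific roX2 RNA, against 11621 to 18619 FPKM in the other male libraries. The lowest correlations within a group over log2 values were 0.910 in *tud* mutant female brain and 0.866 in control male brain. These correlations do not single out a library. Control male brain replicate 3, which is not among the 2, had the highest summed FPKM of the subunits (32374, against 22638 and 18026 in replicates 1 and 2). For each comparison whose groups hold one of the 2 libraries that stand apart, the count of called genes or the subunit median is also given without it. Neuron and ovarian germline markers fitted the labels, as summed neuron markers were at 218 to 857 FPKM in brain libraries and 8.15 to 8.98 FPKM in ovary libraries, and summed ovarian germline markers at 909 to 1052 FPKM in ovary libraries and 20.3 to 51.1 FPKM in brain libraries. The brain libraries also held eye photoreceptor markers, which summed to 2338 to 9564 FPKM, against 17.4 to 19.4 FPKM in ovary libraries. Follicle cell markers summed to 29.9 FPKM in control female brain replicate 3, against 1.30 to 14.3 FPKM in the other brain libraries. The part of these markers in the comparison of tissues was not tested. All 35 genes of the mitochondrial genome were listed at 0 in every library, so the mitochondrially encoded subunits of complexes III, IV and V were not examined, and an exact 0 is reported only as listed at 0.

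**Figure D1:**
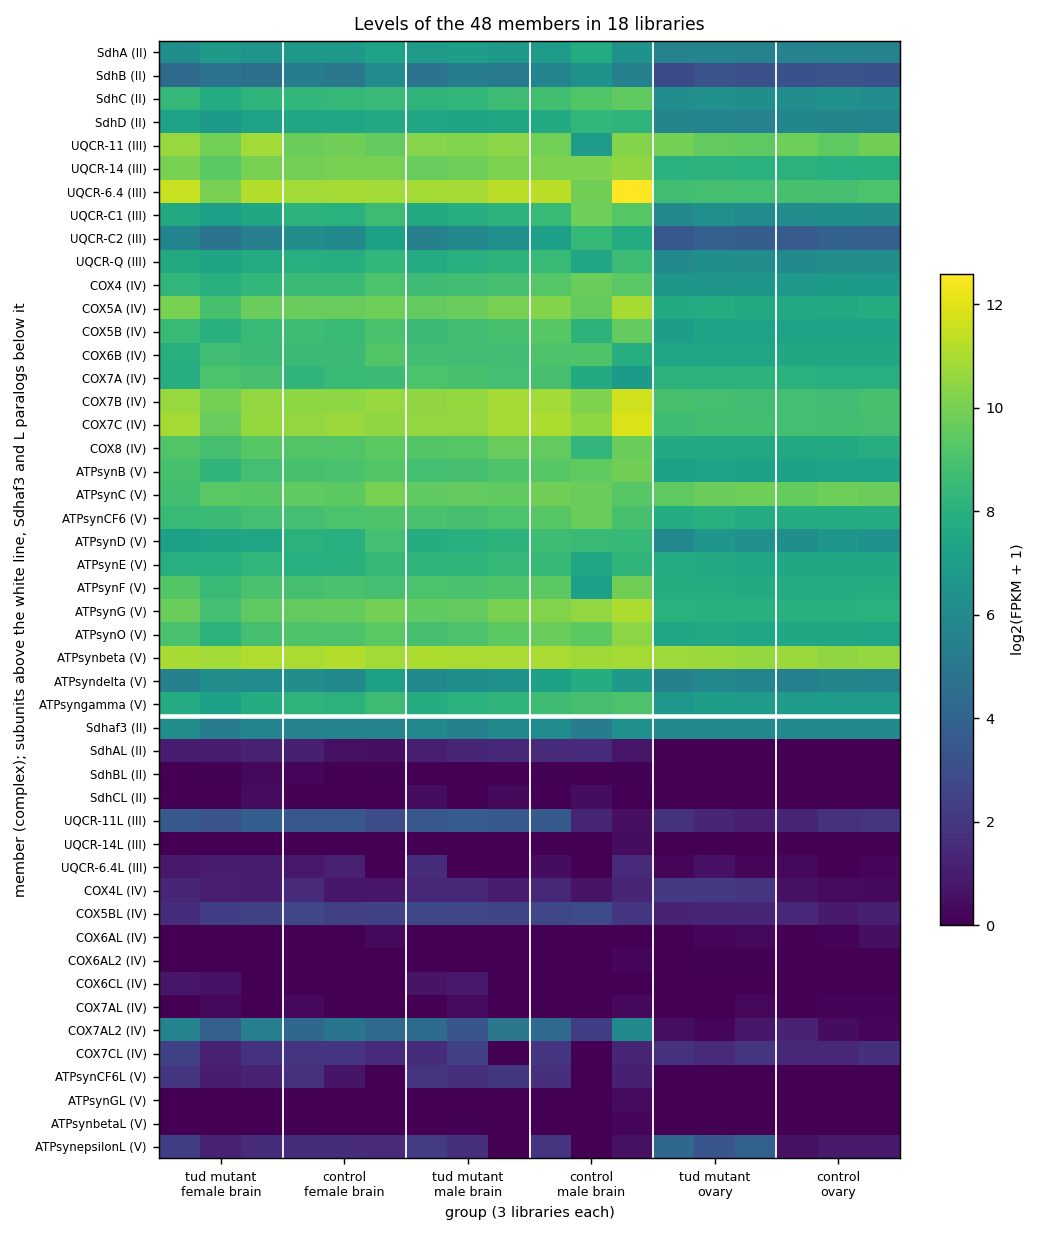
Level of each of the 48 genes, as log2(FPKM + 1) in colour, in the 3 libraries of each group, with the 29 subunits above the white line and *Sdhaf3* and the 18 L paralogs below it. The subunits are bright in all columns and darker in the 6 ovary libraries on the right, while most paralogs stay near 0.

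All 29 subunits were expressed in all 18 libraries, at 6.03 to 6145 FPKM, whereas 9 of the 18 L paralogs stayed under 1 FPKM in every library. Within a complex the subunits spanned a wide range although they are built into the same particle, and their order was partly shared between tissues. Among the 29 subunits, *UQCR-6.4* had the highest mean in *tud* mutant female brain (2083 ± 991 FPKM) and *ATPsynbeta* in control female brain (2027 ± 189.9 FPKM, SD, n = 3 each). The lowest means in these 2 groups were those of *SdhB*, at 23.1 ± 3.77 FPKM in *tud* mutant female brain and 45.7 ± 18.9 FPKM in control female brain.

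In complex II, *SdhC*, one of the membrane anchors, was the highest gene. It was at 71.6, 80.4 and 76.5 FPKM in *tud* mutant ovary, against 70.7, 82.0 and 71.3 FPKM in control ovary. In female brain it had 327, 212 and 288 FPKM in *tud* mutant female brain, against 324, 336 and 369 FPKM in control female brain. The male values were 295, 319 and 394 FPKM in *tud* mutant male brain, against 438, 583 and 723 FPKM in control male brain. All 12 brain libraries thus lay above all 6 ovary libraries, and within the male brains the mutants lay below the controls. *SdhD*, the other anchor, averaged 49.5 ± 2.22 FPKM in *tud* mutant ovary and 52.2 ± 1.82 FPKM in control ovary, and *SdhA*, the flavoprotein that oxidises succinate, 49.2 ± 0.876 FPKM in *tud* mutant ovary and 48.5 ± 0.965 FPKM in control ovary (SD, n = 3 each). *SdhB*, the iron-sulfur subunit, was the lowest of the 4 in every group and the lowest of all 29 subunits in the ovary, at 7.28 ± 1.14 FPKM in *tud* mutant ovary and 8.06 ± 0.179 FPKM in control ovary (SD, n = 3 each). Summed over the 4 subunits, complex II reached 536 ± 57.4 FPKM in *tud* mutant female brain, against 693 ± 78.8 FPKM in control female brain, and 182 ± 6.25 FPKM in *tud* mutant ovary, against 183 ± 6.81 FPKM in control ovary (SD, n = 3 each). The assembly factor *Sdhaf3* was at 62.3 ± 2.16 FPKM in *tud* mutant ovary, against 63.4 ± 1.33 FPKM in control ovary, and at 52.9 ± 15.4 FPKM in *tud* mutant female brain, against 47.8 ± 1.49 FPKM in control female brain (SD, n = 3 each).

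Complex III had both very high and low members. *UQCR-6.4*, a small accessory subunit, had 2994, 1029 and 2227 FPKM in *tud* mutant female brain, against 1844, 1914 and 1807 FPKM in control female brain. Its male values were 1907, 1871 and 2494 FPKM in *tud* mutant male brain, against 2481, 939 and 6145 FPKM in control male brain. *tud* mutant female brain replicate 2 and control male brain replicate 2 were the lowest of the 12 brain libraries and control male brain replicate 3 the highest. In the ovary *UQCR-6.4* was at 419, 465 and 457 FPKM in *tud* mutants, against 485, 466 and 527 FPKM in controls. *UQCR-C2*, one of the large core proteins that face the matrix, averaged 12.1 ± 1.93 FPKM in *tud* mutant ovary and 13.2 ± 1.67 FPKM in control ovary, the lowest level of the 6 complex III subunits (SD, n = 3 each). The other accessory subunits averaged, in *tud* mutant ovary and control ovary, 807 ± 149 and 839.9 ± 126 FPKM for *UQCR-11*, 262 ± 5.48 and 257 ± 14.1 FPKM for *UQCR-14*, and 71.1 ± 5.79 and 68.1 ± 6.23 FPKM for *UQCR-Q* (SD, n = 3 each). *UQCR-14* lies wholly over exons of CG32576 on the opposite strand (523 shared bases), and the sources used here do not say whether the counting used strand.

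In complex IV the nuclear subunits surround a catalytic core made in the mitochondrion. *COX7C* had the highest mean of the 8 in every group except *tud* mutant ovary, with 1874, 809 and 1569.8 FPKM in *tud* mutant female brain, against 1507, 1667 and 1430.0 FPKM in control female brain. In male brain it had 1492, 1502 and 1908 FPKM in *tud* mutant male brain, against 2075, 1377 and 3726 FPKM in control male brain. *tud* mutant female brain replicate 2 was again the lowest brain library and control male brain replicate 3 the highest. The ovary values were 402, 440.1 and 434 FPKM in *tud* mutant ovary, against 453, 434 and 467 FPKM in control ovary. *COX7B*, at 454 ± 29.7 FPKM in *tud* mutant ovary and 451 ± 28.2 FPKM in control ovary, was the other high subunit, and the means of *COX4*, the lowest of the 8 in ovary, were 99.7 ± 0.324 FPKM in *tud* mutant ovary and 112 ± 3.43 FPKM in control ovary (SD, n = 3 each). *COX5A*, *COX5B*, *COX6B*, *COX7A* and *COX8* lay between them in the ovary, with means of 146 to 277 FPKM over both genotypes.

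Complex V had its highest mean in every group in *ATPsynbeta*, the catalytic subunit of the F1 head. It had 1967, 1813 and 2181 FPKM in *tud* mutant female brain, against 1998, 2229 and 1852 FPKM in control female brain. The male brains held 2113, 2014 and 2020.4 FPKM in *tud* mutant male brain, against 2036, 1749 and 1887 FPKM in control male brain. The ovaries held 1709.5, 1680.1 and 1549 FPKM in *tud* mutant ovary, against 1660.4, 1462 and 1556 FPKM in control ovary. All 6 ovary libraries lay below all 12 brain libraries, by a narrow margin. In control ovary *ATPsynbeta* alone made up 19.98% of the summed FPKM of all 29 subunits, and 11.3% in control female brain. *ATPsynC*, the subunit of the rotating membrane ring, was the next highest of complex V in the ovary (814 ± 87.8 FPKM in *tud* mutant ovary and 837 ± 58.0 FPKM in control ovary; SD, n = 3 each). The peripheral stalk subunits *ATPsynB*, *ATPsynCF6*, *ATPsynD* and *ATPsynO* had ovary means of 77.7 to 229.9 FPKM, and *ATPsynE*, *ATPsynF* and *ATPsynG*, small subunits of the membrane part, 185 to 258 FPKM. Of the central stalk, *ATPsyngamma* averaged 119 ± 14.7 FPKM in *tud* mutant ovary and 119 ± 3.85 FPKM in control ovary and *ATPsyndelta* 49.8 ± 6.26 FPKM in *tud* mutant ovary and 47.9 ± 4.89 FPKM in control ovary (SD, n = 3 each). *ATPsyndelta* shares 1358 exonic bases with CG2962 on the opposite strand.

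**Figure D2:**
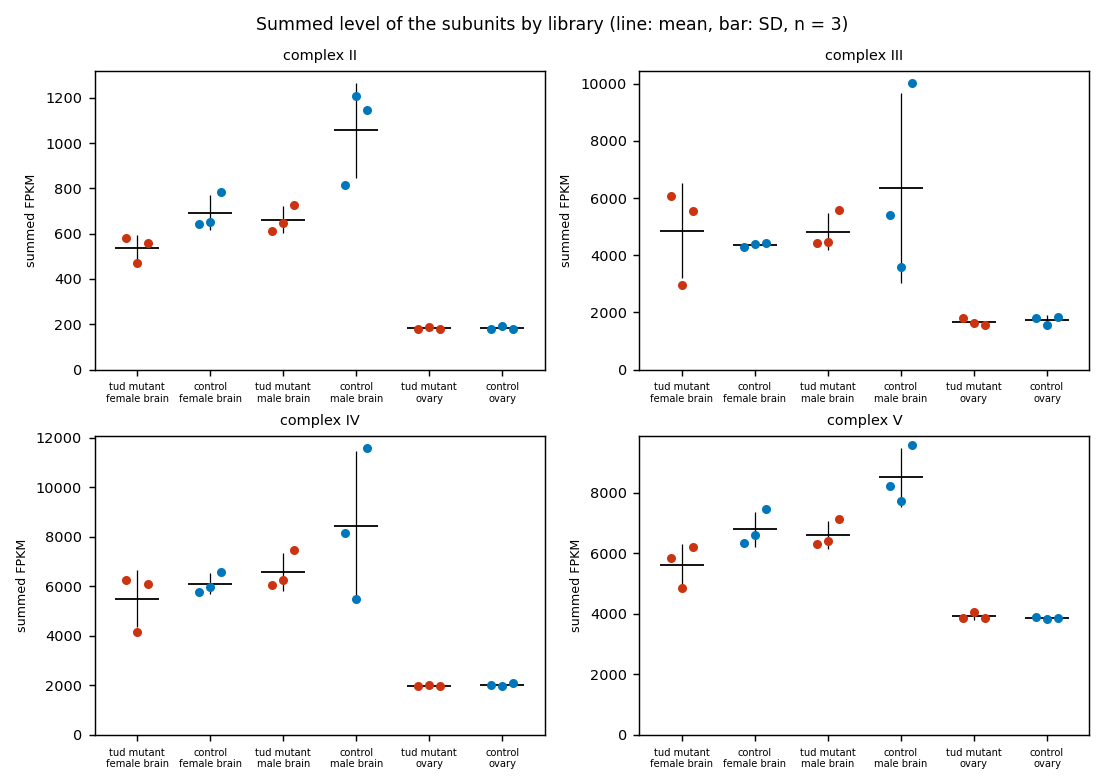
Summed FPKM of the subunits of each complex in each library (points), with the group mean (line) and SD (bar, n = 3). The 6 ovary libraries lie below the 12 brain libraries in every panel, and the 3 control male brain libraries are the most scattered.

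The ovaries were compared with the brains of females of the same genotype. In controls, 25 of the 29 subunits were lower in ovary than in female brain and 0 were higher, against 44.3% of all 10443 genes tested that were lower and 35.7% that were higher (limma on log2(FPKM + 1) with Benjamini-Hochberg adjustment over all genes, adjusted p of at most 0.05). The median difference of the subunits was -1.70 on the log2(FPKM + 1) scale, against -0.21 over all genes tested. In *tud* mutants 25 subunits were lower and 1 was higher (43.4% and 36.1% of all genes), with a median of -1.31 against -0.16. Without *tud* mutant female brain replicate 2 the median in *tud* mutants was -1.46, and 29 of the 48 genes were called lower and 3 higher, against 28 and 3 with all libraries. In these bulk samples, fewer cells of a type and less RNA per cell cannot be told apart. Gene span moves with this comparison, since the protein-coding genes tested with a span of at least 20 kb had a median of -1.59 in controls and those under 5 kb a median of -0.054, and 45 of the 48 genes are under 5 kb. Its part in the result was tested only by removing the span trend, which left a subunit median of -1.32 in controls and -1.02 in *tud* mutants.

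The complexes differed in the size of the fall. In controls the median was -1.97 over the 4 subunits of complex II, -1.94 over the 6 of complex III, -1.61 over the 8 of complex IV and -1.19 over the 11 of complex V, and these medians were not tested against each other. *UQCR-C2* fell furthest of the subunits in controls, with 11.4, 14.7 and 13.6 FPKM in control ovary, against 73.8, 61.8 and 139.8 FPKM in control female brain (log2 difference -2.62, SE 0.29, limma adjusted p = 7.19e-06). *SdhB* followed at -2.29, *SdhC* at -2.19, and *UQCR-C1* and *COX5A* at -2.05 each, all with a limma adjusted p of at most 6.37e-06. In *tud* mutants the largest fall was that of *UQCR-6.4* (-2.09, adjusted p = 7.7e-05), followed by *COX5A* (-1.86) and *SdhC* (-1.82). Of the other subunits lower in both genotypes, the difference in controls ran from -0.57 for *ATPsynE* to -1.96 for *UQCR-14*.

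A few subunits did not pass the test. In controls these were *UQCR-11* (-0.016, 95% interval -0.57 to 0.54), *COX7A* (-0.46, -1.01 to 0.089), *ATPsynbeta* (-0.38, -0.76 to 0.0086) and *ATPsynC* (0.060, -0.40 to 0.52). In *tud* mutants they were *COX7A* (-0.45), *ATPsynbeta* (-0.27) and *ATPsyndelta* (-0.27), while *ATPsynC* was higher in ovary by 0.50 (limma adjusted p = 0.0454). *UQCR-11* was at 911, 694 and 915 FPKM in control ovary, against 873, 912 and 750.3 FPKM in control female brain, and these values overlap. *Sdhaf3* was higher in ovary than in female brain in controls (0.40, adjusted p = 0.0389), with 0.27 and an adjusted p of 0.144 in *tud* mutants. With quantile normalization, which shifts the median of all genes in this comparison by over 0.1, to 0.15 in controls and 0.19 in *tud* mutants, the subunit medians were -0.99 and -0.84, and 25 of the 48 genes were called lower and 7 higher in controls, against 30 and 1 as deposited (in *tud* mutants 24 and 5, against 28 and 3). The difference of *ATPsynbeta* turned with it to 0.65 in controls (limma adjusted p = 0.0421) and 0.61 in *tud* mutants (adjusted p = 0.0533). On leaving out replicate 2 of the *tud* mutant female brains, *ATPsynbeta* was called lower in controls (-0.38, adjusted p = 0.0120) and in *tud* mutants (-0.33, adjusted p = 0.0355). Over all genes, quantile normalization gave 3589 lower and 4371 higher in controls, against 4627 and 3728 as deposited, and 3495 and 4484 in *tud* mutants, against 4535 and 3773.

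**Figure D3:**
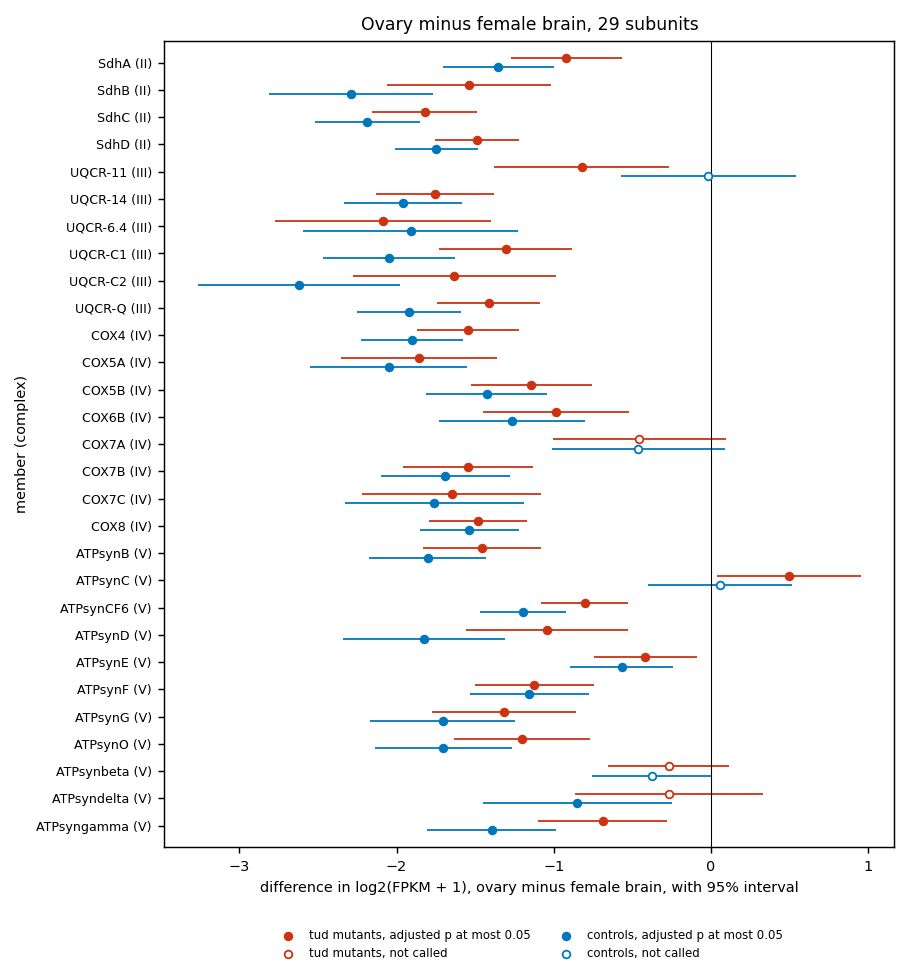
Difference in log2(FPKM + 1) between ovary and female brain for the 29 subunits, with 95% intervals, in *tud* mutants (upper of each pair) and in controls (lower); filled points passed an adjusted p of 0.05. Nearly all points lie left of 0, and *UQCR-11*, *COX7A*, *ATPsynC* and *ATPsynbeta* lie nearest to it in controls.

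Other genes of mitochondrial respiration were compared in the same fits, where 44.3% of all genes were lower and 35.7% higher in controls, and 43.4% and 36.1% in *tud* mutants. All 34 complex I (NADH dehydrogenase) genes tested were lower in control ovary than in control female brain, with a median of -2.03, and 33 of 34 in *tud* mutants. Among 7 further subunits of complexes III to V that carry other names, 6 were lower in controls, among them the Rieske iron-sulfur protein RFeSP (-2.30), and blw, the alpha subunit of ATP synthase and partner of *ATPsynbeta*, was not called (0.094). Of 10 TCA cycle genes 7 were lower and 1 was higher. Of 70 mitochondrial ribosomal proteins, which build the respiratory subunits inside the organelle, 34 were lower and 11 higher in controls, and 14 lower and 19 higher in *tud* mutants. Of 9 assembly factors 4 were lower in controls, led by Ttc19 (-2.60), and 1 higher. The share of lower genes among the ribosomal proteins and the assembly factors was thus near that of all genes in controls. Of 6 regulators of mitochondrial genes 4 were higher in control ovary, beside 35.7% of all genes: srl, the fly PGC-1 homolog (4.77), TFAM, which packages mitochondrial DNA (1.42), mtTFB2 (1.32) and Ets97D (1.01).

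The *tud* mutant ovary was then compared with the control ovary. None of the 29 subunits passed the test (0 lower, 0 higher), against 1.55% of all 8254 genes tested that were lower and 2.54% that were higher. In limma, 1 of the 29 had an unadjusted p under 0.05, against 1536 of all 8254 genes. The differences of the subunits ran from -0.18 for *ATPsynD* to 0.14 for *COX7A*, with a median of -0.022 over the subunits and 0.0023 over all genes. The 95% intervals of the 29 differences stayed between -0.60 and 0.33, so changes in either direction larger than these bounds are outside every interval. The subunit with an unadjusted p under 0.05 was *COX4*, at 99.4, 99.98 and 99.9 FPKM in *tud* mutant ovary, against 108, 114.5 and 113 FPKM in control ovary. The mutant libraries lay below all controls, yet the difference was small (-0.16, SE 0.052, limma adjusted p = 0.164). Libraries of the 2 genotypes did not overlap for 3 subunits that were lower (*UQCR-6.4*, *COX4* and *COX6B*) and 1 that was higher (*COX7A*), against 11.4% and 13.3% of all genes. By complex the medians were -0.028 for II, -0.083 for III, -0.087 for IV and 0.0025 for V. The ovary libraries agreed closely for these genes, with a median coefficient of variation over the subunits of 5.77% in *tud* mutant ovary and 4.19% in control ovary, against 11.6% to 37.6% in the brain groups. Values taken as a share of protein-coding FPKM gave 129 lower and 320 higher of all genes in this comparison, against 128 and 210 as deposited.

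*COX4L* and *ATPsynepsilonL* were the 2 genes that rose in *tud* mutant ovary. Both averaged under 1 FPKM in control ovary and so passed the filter of 1 FPKM only through the *tud* mutant libraries in which they are high, and their place among the genes tested is no support for the difference. With no filter the adjusted p was 0.0148 for *COX4L* and 0.0244 for *ATPsynepsilonL* (limma). *ATPsynepsilonL*, a copy of the epsilon subunit gene sun, lies on chromosome arm 3R (dm6 assembly, 10121773 to 10122320, plus strand) and had 18.3, 8.85 and 14.1 FPKM in *tud* mutant ovary, against 0.493, 0.891 and 0.787 FPKM in control ovary. All 3 mutant libraries lay above all 3 controls. The difference on the log2(FPKM + 1) scale was 3.05 (SE 0.24, 95% interval 2.47 to 3.63, limma adjusted p = 0.000956), and the ratio of the means was 19.0, since the added 1 FPKM shrinks the change of low genes. It ranked 9th by size among the 210 genes that rose. sun itself, the standard epsilon subunit, differed by -0.054 in the ovary.

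*COX4L*, a copy of *COX4*, lies on arm 2R (5353994 to 5354723, plus strand), on the chromosome that differs between the genotypes, and had 3.24, 3.43 and 2.65 FPKM in *tud* mutant ovary, against 0.490, 0.283 and 0.234 FPKM in control ovary. Again no library of either genotype fell within the range of the other. Its difference was 1.62 (SE 0.16, 95% interval 1.24 to 2.00, limma adjusted p = 0.00239), a ratio of means of 9.25, and it ranked 34th of 210. *COX4L* stayed far below *COX4*, at 3.11% of its mean FPKM in *tud* mutant ovary and 0.3003% in control ovary. Both genes rest on few fragments in the controls: with the depths estimated above, *COX4L* corresponds to about 35.6 to 41.6 fragments in *tud* mutant ovary libraries, against 3.21 to 5.43 in control ovary libraries, and *ATPsynepsilonL* to about 56.5 to 154 fragments in *tud* mutant ovary libraries, against 2.88 to 8.97 in control ovary libraries, figures that cover counting only and depend on the assumed fragment length.

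None of the genes tested next to these 2 paralogs passed the test. IFT20, 1872 bp from *COX4L*, differed by 0.65 (limma adjusted p = 0.157), CG10395 by 0.082 and CG10417 by 0.13, all with adjusted p over 0.05. CAH7, 1692 bp from *ATPsynepsilonL*, differed by 0.10 (adjusted p = 0.521), and knk, 45 bp away on the opposite strand, averaged 0.0955 ± 0.0228 FPKM in *tud* mutant ovary and 0.115 ± 0.0206 FPKM in control ovary (SD, n = 3 each). Since many duplicated copies of this kind are known from the testis, 7 testis markers were read in the same libraries. Their sum was 0.489, 0.816 and 0.533 FPKM in *tud* mutant ovary, against 0.140, 0.215 and 0.513 FPKM in control ovary. Mst84Db and dj were listed at 0 in all 6, and aly, a regulator of spermatocyte genes, was at 0.230, 0.191 and 0.200 FPKM in *tud* mutant ovary and listed at 0 in all 3 control ovaries, so the sums overlap and the part of these markers in the result was not tested. Summed follicle cell markers were at 2564 to 3623 FPKM in *tud* mutant ovary and 3650 to 4212 FPKM in control ovary, and fat body markers at 718 to 937 FPKM in *tud* mutant ovary and 1132 to 1270 FPKM in control ovary, with their part not tested either. Nearly all of that fat body sum came from Yp1 and Yp2. The next highest gene of the list, apolpp, overlapped, at 16.3 to 20.2 FPKM in *tud* mutant ovary and 14.9 to 49.7 FPKM in control ovary.

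Whether the genotype difference itself differed between ovary and female brain was tested directly. It was larger in ovary by 2.95 for *ATPsynepsilonL* (SE 0.42, limma adjusted p = 0.00767) and by 1.53 for *COX4L* (SE 0.31, adjusted p = 0.0472), against 0.575% of all genes called in that direction and 0.479% in the other. *COX4L* reached the filter in this fit only through *tud* mutant ovary as well, and with no filter the adjusted p was 0.0458 for *COX4L* and 0.0197 for *ATPsynepsilonL*. In female brain *ATPsynepsilonL* had 4.09, 1.28 and 1.99 FPKM in *tud* mutant female brain, against 2.18, 2.01 and 1.94 FPKM in control female brain. *COX4L* had 1.54, 1.10 and 0.942 FPKM in *tud* mutant female brain, against 1.87, 0.746 and 0.697 FPKM in control female brain. Both genes overlap between genotypes there. The *COX4L* call rests on single libraries, as it was lost on leaving out any of 8 of the 12 libraries in turn (each ovary library, control female brain replicate 2 and *tud* mutant female brain replicate 3; adjusted p of 0.0696 to 0.143), while *ATPsynepsilonL* was called without each library. No subunit was called (8 of 29 at an unadjusted p under 0.05 in limma, against 2113 of all 10443 genes), and the median of the subunits was 0.35, against 0.016 over all genes. Without *tud* mutant female brain replicate 2, the subunit median was 0.19 and *UQCR-11* was called too. Over all genes, 50 were called lower and 60 higher in this comparison, and 18 and 38 with values as a share of protein-coding FPKM.

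**Figure D4:**
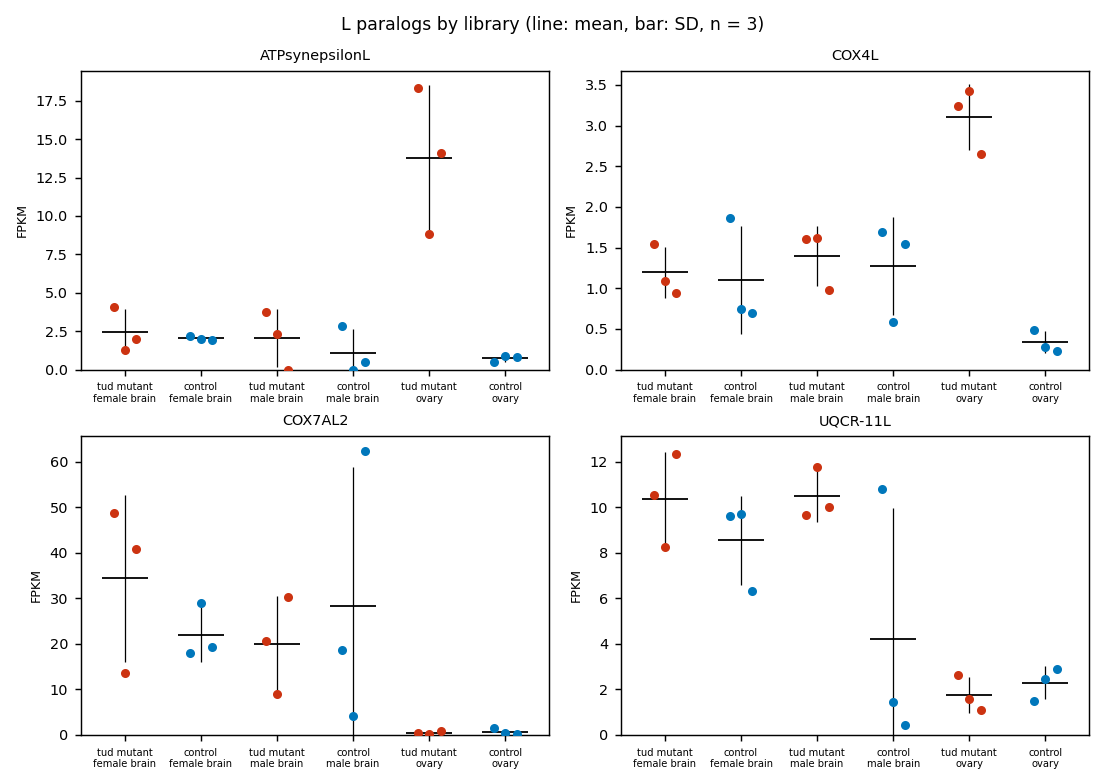
FPKM of 4 L paralogs in each library (points), with the group mean (line) and SD (bar, n = 3, drawn no lower than 0). *ATPsynepsilonL* and *COX4L* are high in the 3 *tud* mutant ovary libraries and lie lower in all other libraries, whereas *COX7AL2* and *UQCR-11L* are higher in female brain than in ovary.

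The other L paralogs that reached 1 FPKM were compared with their partners. *COX7AL2*, a copy of *COX7A*, was the highest paralog, with 48.6, 13.6 and 40.9 FPKM in *tud* mutant female brain, against 17.9, 28.8 and 19.4 FPKM in control female brain. Male brains held 20.5, 8.98 and 30.3 FPKM in *tud* mutant male brain, against 18.7, 4.07 and 62.4 FPKM in control male brain. The ovaries held 0.369, 0.126 and 0.777 FPKM in *tud* mutant ovary, against 1.42, 0.340 and 0.166 FPKM in control ovary. The gene was thus higher in the brain libraries than in the ovary libraries in both genotypes. Its ovary mean was under the filter of 1 FPKM, so it was tested only through the brain libraries, and its place among the genes tested is no support. The log2 difference between ovary and female brain was -4.48 in *tud* mutants and -3.86 in controls (limma adjusted p = 2.19e-06 and 7.94e-06). The brain libraries also held eye photoreceptor markers, and their part in this difference was not tested. *COX7AL2* reached 8.53% of the mean FPKM of *COX7A* in *tud* mutant female brain and 6.33% in control female brain. *UQCR-11L*, which lies in an intron of Acsl on the same strand, had 10.6, 8.25 and 12.4 FPKM in *tud* mutant female brain, against 9.63, 9.69 and 6.31 FPKM in control female brain. Its male values were 9.65, 11.8 and 10.03 FPKM in *tud* mutant male brain, against 10.8, 1.47 and 0.428 FPKM in control male brain. In the ovary it had 2.63, 1.57 and 1.10 FPKM in *tud* mutant ovary, against 1.49, 2.46 and 2.91 FPKM in control ovary. It fell in ovary as well (-2.06 in *tud* mutants and -1.54 in controls, limma adjusted p = 1.48e-05 and 0.000159), and control male brain replicates 2 and 3 were the lowest brain libraries.

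*COX5BL*, which lies beside *COX5B* and shares 647 exonic bases with Trmt6 on the opposite strand, had 2.04, 4.13 and 4.45 FPKM in *tud* mutant female brain, against 5.43, 4.26 and 4.51 FPKM in control female brain. Male brain gave 5.60, 5.38 and 5.09 FPKM in *tud* mutant male brain, against 5.495, 6.70 and 3.01 FPKM in control male brain. Ovary gave 1.33, 1.51 and 1.44 FPKM in *tud* mutant ovary, against 1.66, 0.888 and 1.15 FPKM in control ovary. It was lower in ovary than in female brain, with a log2 difference of -0.86 in *tud* mutants and -1.37 in controls (limma adjusted p = 0.00382 and 0.000141), a direction that quantile normalization turned to 0.77 and 0.29. *COX7CL*, next to *COX7C*, had 4.37, 1.42 and 2.65 FPKM in *tud* mutant female brain, against 2.79, 2.70 and 1.87 FPKM in control female brain. It had 2.00, 4.19 and 0 FPKM in *tud* mutant male brain, against 3.04, 0 and 1.49 FPKM in control male brain. Ovaries showed 2.48, 1.82 and 2.90 FPKM in *tud* mutant ovary, against 1.77, 1.74 and 2.30 FPKM in control ovary. It did not pass the test between tissues (-0.10 in *tud* mutants and -0.23 in controls), and both signs turned under quantile normalization (1.35 and 1.28) and after removal of the span trend (1.05 and 0.79). *COX4L* and *ATPsynepsilonL* were lower in control ovary than in control female brain (-0.62 and -0.82, limma adjusted p = 0.0220 and 0.0235) and higher in *tud* mutant ovary than in *tud* mutant female brain (0.91 and 2.13, adjusted p = 0.00252 and 4.52e-05), and the fall in controls turned to a rise with quantile normalization (0.77 and 0.79) and after removal of the span trend (0.060 and 0.15).

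*SdhAL*, *ATPsynCF6L* and *UQCR-6.4L* completed the 9. *SdhAL*, which lies in an intron of CG44837, had 1.02, 0.982 and 1.30 FPKM in *tud* mutant female brain, against 1.14, 0.468 and 0.432 FPKM in control female brain. Male brains had 1.11, 1.56 and 1.70 FPKM in *tud* mutant male brain, against 1.86, 1.88 and 0.687 FPKM in control male brain, and all 6 ovary libraries listed it at 0. *ATPsynCF6L*, in an intron of Con, had 2.93, 1.02 and 1.27 FPKM in *tud* mutant female brain, against 2.45, 0.648 and 0 FPKM in control female brain. Male brains had 2.68, 2.26 and 3.14 FPKM in *tud* mutant male brain, against 2.19, 0 and 1.19 FPKM in control male brain, and it too was listed at 0 in all 6 ovary libraries. *UQCR-6.4L* had 0.790, 0.960 and 0.959 FPKM in *tud* mutant female brain, against 0.841, 1.22 and 0 FPKM in control female brain. In male brain it had 2.17, 0 and 0 FPKM in *tud* mutant male brain, against 0.343, 0 and 1.79 FPKM in control male brain. In ovary it had 0.172, 0.548 and 0.164 FPKM in *tud* mutant ovary, against 0.200, 0 and 0.160 FPKM in control ovary. The highest value of *UQCR-6.4L* rests on about 7.18 fragments, so no order can be read from it. The introns named here can carry reads of their host genes, and the counting of such reads is not stated. In male brain *COX4L* had 1.61, 1.62 and 0.973 FPKM in *tud* mutant male brain, against 1.70, 0.583 and 1.55 FPKM in control male brain, and *ATPsynepsilonL* had 3.74, 2.34 and 0 FPKM in *tud* mutant male brain, against 2.84, 0 and 0.464 FPKM in control male brain. The 9 paralogs under 1 FPKM in all 18 libraries were *SdhBL*, *SdhCL*, *UQCR-14L*, *COX6AL*, *COX6AL2*, *COX6CL*, *COX7AL*, *ATPsynGL* and *ATPsynbetaL*, with a highest value of 0.801 FPKM (*COX6CL*). *COX6AL2* shares 2098 exonic bases with Ir75d on the same strand. None of the 8 paralogs tested in brain was called between the genotypes (limma, 1 at an unadjusted p under 0.05, *UQCR-11L* at 0.99, adjusted p = 0.0975). Of all 10689 genes tested, 4462 had an unadjusted p under 0.05 in that comparison.

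In brain, the difference between *tud* mutants and controls was estimated as the mean over both sexes. Of the 29 subunits, 9 were lower in *tud* mutant brain and 0 were higher, against 10.8% of all 10689 genes tested that were lower and 14.2% that were higher. The 9 were *SdhB*, *SdhC* and *SdhD* of complex II, *UQCR-C1* and *UQCR-C2* of complex III, *COX4* of complex IV, and *ATPsynD*, *ATPsyndelta* and *ATPsyngamma* of complex V. The median over the subunits was -0.34, against 0.070 over all genes. Of the 29 differences 23 were below 0, against 4813 of all 10689 genes. The call of single genes was not stable: it ranged from 1 gene (*UQCR-C2*, on removal of replicate 1 of the *tud* mutant male brains) to 13 genes (on removal of control male brain replicate 1), with 4 on removal of control female brain replicate 3 or of replicate 2 of the *tud* mutant male brains, and 5 on removal of control female brain replicate 2 or of replicate 2 of the *tud* mutant female brains. Without both libraries that stand apart, 9 genes were called, 8 lower and 1 higher (*UQCR-11*), of which 6 were among the 9 above, and the subunit median was -0.34.

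Several measures moved with this comparison, and their part in it was not tested except where stated. Summed neuron markers (6 genes) were at 441 to 857 FPKM in *tud* mutant female brain, against 218 to 402 FPKM in control female brain, and at 563 to 669 FPKM in *tud* mutant male brain, against 237 to 470 FPKM in control male brain. Of the 6 genes, 2 were called higher, beside 14.2% of all genes. Only nSyb and Syt1 did not overlap between the genotypes in either sex. The genes brp, elav and Syx1A overlapped in both sexes, and ChAT in males. Eye photoreceptor markers (6 genes) were at 2779 to 9564 FPKM in *tud* mutant female brain and 3194 to 3497 FPKM in control female brain, and at 4851 to 7290 FPKM in *tud* mutant male brain and 2338 to 3566 FPKM in control male brain. Ovarian germline markers (5 genes) summed to 34.6 to 51.1 FPKM in *tud* mutant female brain, against 27.1 to 31.1 FPKM in control female brain, and to 36.0 to 41.6 FPKM in *tud* mutant male brain, against 20.3 to 30.9 FPKM in control male brain, and 2 of the 3 tested were called higher. Most of these sums came from orb and gcl. In every brain library osk stayed at or below 0.735 FPKM and bcd at or below 0.426 FPKM. The remaining gene, aub, was at 1.82 to 4.83 FPKM in *tud* mutant brain libraries and 0.395 to 2.10 FPKM in control brain libraries. Whether the brain libraries held germline RNA was not tested. Protein-coding genes tested with a span under 5 kb had a median of -0.060, with 14.6% called lower, and those of at least 20 kb a median of 0.40, with 4.02% called lower, while the subunits span 589 to 5463 bp. With the span trend removed 9 genes were still called, 7 of them among the 9 above. With values as a share of protein-coding FPKM, which moves the median of all genes to 0.24, 3 subunits were called lower (*UQCR-C1*, *UQCR-C2* and *ATPsyngamma*) and *UQCR-11* higher, with a subunit median of -0.13. Over all genes, 1150 were called lower and 1516 higher as deposited, 456 and 1619 as a share of protein-coding FPKM, and 1477 and 1166 with quantile normalization.

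*UQCR-C2* and *UQCR-C1*, the core proteins of complex III, fell furthest. *UQCR-C2* (arm 3L, 16584124 to 16586111, plus strand) had 50.4, 27.6 and 43.4 FPKM in *tud* mutant female brain, against 73.8, 61.8 and 139.8 FPKM in control female brain. Its male values were 44.4, 59.4 and 77.5 FPKM in *tud* mutant male brain, against 139, 342 and 212 FPKM in control male brain. All mutant libraries lay below all controls of their sex, and the difference was -1.48 (SE 0.28, limma adjusted p = 0.0127). In the ovary the gene had 9.89, 13.5 and 12.9 FPKM in *tud* mutant ovary, against 11.4, 14.7 and 13.6 FPKM in control ovary, values that overlap. *UQCR-C1* (arm 3R, 14890231 to 14892387, plus strand) had 202, 135 and 184 FPKM in *tud* mutant female brain, against 283, 258 and 401 FPKM in control female brain. Male brain held 200.1, 229 and 280.2 FPKM in *tud* mutant male brain, against 372, 903 and 608 FPKM in control male brain. The sexes agreed in that no mutant library reached a control of its sex, with a difference of -1.09 (SE 0.23, adjusted p = 0.0162). Its ovary values were 59.8, 77.9 and 69.3 FPKM in *tud* mutant ovary, against 69.9, 77.2 and 74.7 FPKM in control ovary. None of the small subunits of complex III was called: *UQCR-6.4* differed by -0.10, *UQCR-14* by -0.29, *UQCR-Q* by -0.34 and *UQCR-11* by 1.00 (95% interval -0.082 to 2.09).

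In complex II, 3 of the 4 subunits were lower in *tud* mutant brain. *SdhB* (arm 2R, 6807626 to 6809172, plus strand) had 19.1, 26.5 and 23.8 FPKM in *tud* mutant female brain, against 39.2, 30.9 and 67.0 FPKM in control female brain. In males it had 26.3, 38.2 and 36.3 FPKM in *tud* mutant male brain, against 50.1, 84.3 and 43.1 FPKM in control male brain. No mutant library reached a control of its sex, and the difference was -0.82 (SE 0.22, limma adjusted p = 0.0279). In the ovary *SdhB* had 6.03, 8.25 and 7.55 FPKM in *tud* mutant ovary, against 8.14, 8.19 and 7.86 FPKM in control ovary, overlapping values. *SdhC*, whose values are given above, differed by -0.55 (SE 0.17, adjusted p = 0.0426); its female values overlap between genotypes, as 1 mutant library lies above 1 control. *SdhD* had 158, 117 and 151 FPKM in *tud* mutant female brain, against 167, 173 and 193 FPKM in control female brain. Male brain had 169.7, 164 and 189 FPKM in *tud* mutant male brain, against 208, 323 and 292 FPKM in control male brain. The genotypes did not overlap in either sex (-0.48, SE 0.15, adjusted p = 0.0371), and the ovary values were 51.1, 50.5 and 47.0 FPKM in *tud* mutant ovary, against 54.2, 51.7 and 50.7 FPKM in control ovary. *SdhA* was at -0.28 (95% interval -0.76 to 0.19) and was not called.

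In complex IV, *COX4* alone passed. *COX4* had 315, 248 and 323 FPKM in *tud* mutant female brain, against 376, 379 and 523 FPKM in control female brain. The male libraries had 397, 422 and 475 FPKM in *tud* mutant male brain, against 614, 848 and 651 FPKM in control male brain. The genotypes did not overlap in either sex, and the difference was -0.61 (SE 0.16, limma adjusted p = 0.0265). The 7 others ran from -0.34 for *COX5A* to 0.62 for *COX7A*, with -0.32 for *COX7C*, -0.31 for *COX5B*, -0.19 for *COX7B*, -0.15 for *COX6B* and 0.026 for *COX8*, and their adjusted p were 0.166 to 0.947.

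In complex V the called genes were stalk subunits. *ATPsyngamma*, the rotating shaft of the F1 head, had 217, 147 and 217 FPKM in *tud* mutant female brain, against 289, 271 and 399.7 FPKM in control female brain. Its male values were 223, 263 and 292 FPKM in *tud* mutant male brain, against 414, 469 and 533 FPKM in control male brain. No mutant library overlapped with the controls of its sex (-0.79, SE 0.17, limma adjusted p = 0.0161). *ATPsynD*, of the peripheral stalk, had 141, 161 and 175 FPKM in *tud* mutant female brain, against 274, 242 and 450.0 FPKM in control female brain. In male brain there were 218, 242 and 277 FPKM in *tud* mutant male brain, against 410.3, 374 and 346 FPKM in control male brain. It did not overlap in either sex (-0.79, SE 0.17, adjusted p = 0.0165). *ATPsyndelta* had 44.1, 71.5 and 67.8 FPKM in *tud* mutant female brain, against 72.9, 64.0 and 140.1 FPKM in control female brain. For males the values were 63.0, 75.4 and 85.4 FPKM in *tud* mutant male brain, against 139.6, 223 and 108 FPKM in control male brain. Here the female values overlap and the male values do not (-0.77, SE 0.24, adjusted p = 0.0415). In ovary *ATPsyngamma* had 102, 129.9 and 124 FPKM in *tud* mutant ovary, against 117, 124 and 117 FPKM in control ovary, and *ATPsynD* had 58.5, 93.2 and 81.5 FPKM in *tud* mutant ovary, against 76.0, 97.5 and 88.4 FPKM in control ovary. *ATPsyndelta* had 43.2, 55.7 and 50.5 FPKM in *tud* mutant ovary, against 42.5, 51.8 and 49.5 FPKM in control ovary, and all 3 genes overlap between the genotypes there. *ATPsynB* (-0.50), *ATPsynG* (-0.63) and *ATPsynO* (-0.62) had adjusted p of 0.0601, 0.0634 and 0.0616. *ATPsynbeta*, the highest gene, was at 0.045 (95% interval -0.36 to 0.45), *ATPsynC* at -0.28, *ATPsynCF6* at -0.35, *ATPsynE* at 0.071 and *ATPsynF* at 0.12. Over all complexes, the mutant libraries lay below the controls of their sex in both sexes for 9 subunits (*SdhB*, *SdhD*, *UQCR-C1*, *UQCR-C2*, *COX4*, *ATPsynB*, *ATPsynD*, *ATPsynO* and *ATPsyngamma*) and above them for 0, against 9.01% and 10.0% of all genes.

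**Figure D5:**
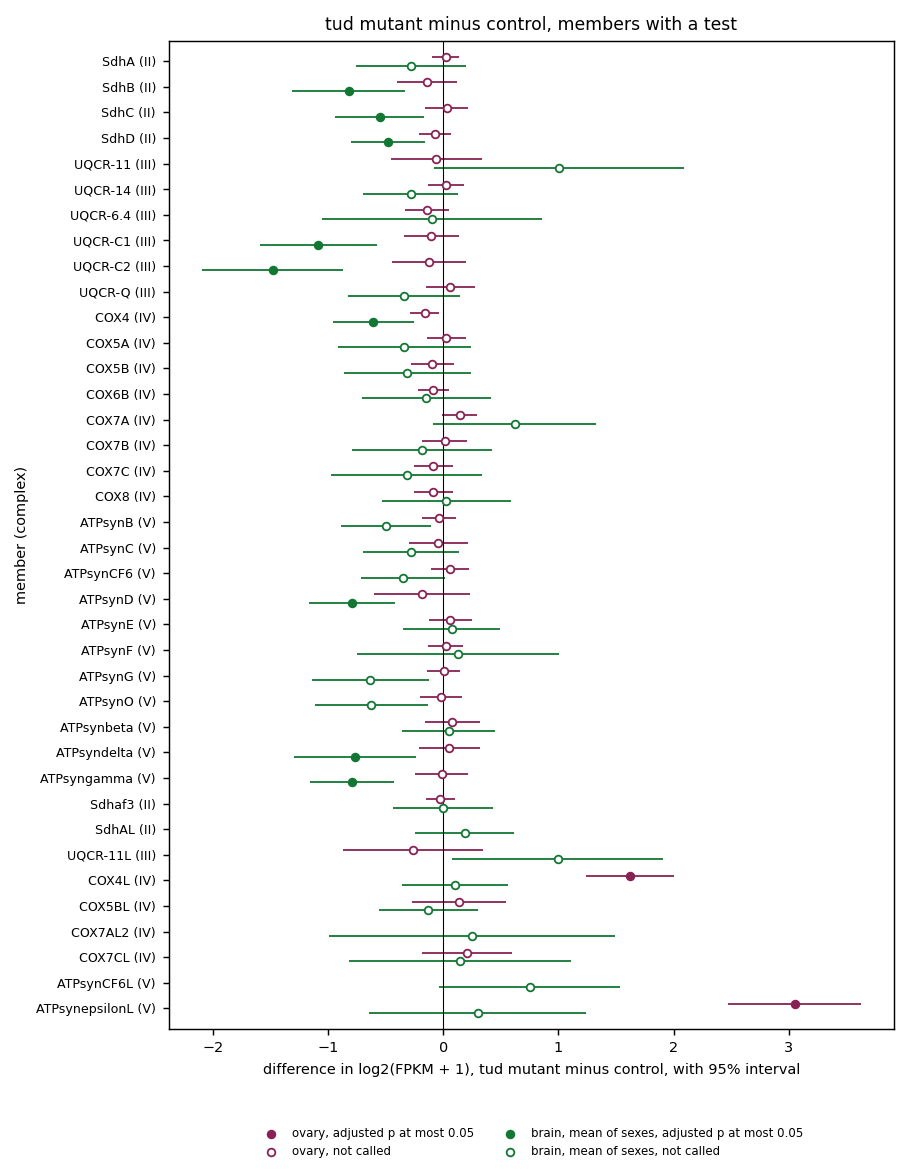
Difference in log2(FPKM + 1) between *tud* mutants and controls, with 95% intervals, for the genes with a test in ovary (upper of each pair) or in brain as the mean of both sexes (lower). In ovary the subunits lie within 0.2 of 0 and *COX4L* and *ATPsynepsilonL* stand far to the right, while in brain 9 subunits are filled on the left.

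Within each sex, no gene of the 48 was called. In female brain 0 of 38 genes tested passed (limma, 6 at an unadjusted p under 0.05), with a subunit median of -0.37, and in male brain 0 passed (14 at an unadjusted p under 0.05), with a median of -0.39. Over all genes, 0.131% were lower and 0.206% higher in female brain, and 0.552% and 0.683% in male brain. An unadjusted p under 0.05 in limma was reached by 1802 of all 10689 genes in female brain and 3549 in male brain, shares near those of the 38. The male calls depend on single libraries, as 9 genes were called without control male brain replicate 1 and 3 (*UQCR-C1*, *UQCR-C2* and *ATPsyngamma*) without the library labelled *tud* mutant female brain replicate 2, and *UQCR-C2* had an adjusted p of 0.0512 with all libraries. In female brain, 1 gene (*UQCR-11*) was called, higher, without the 2 libraries that stand apart, with a subunit median of -0.19, and in male brain 0 were called without them, with a median of -0.62. In male brain the split of all genes was 59 lower and 73 higher, 131 and 80 with quantile normalization, and 44 and 200 with values as a share of protein-coding FPKM. The difference between the sexes in the genotype difference was called for 0 genes (0 at an unadjusted p under 0.05; 0.00936% of all genes in each direction), with wide intervals such as -2.69 to 1.66 for *UQCR-11*, so the data do not show that the sexes were alike. Without the 2 libraries that stand apart 0 genes were called for this difference as well, with a subunit median of 0.33, against 0.11 with all libraries.

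Between female and male brains of the same genotype, none of the 48 genes was called either. In *tud* mutants 0 of 38 were called (limma, 2 at an unadjusted p under 0.05, *COX4* and *ATPsynD*), and in controls 0 (9 at an unadjusted p under 0.05), against 0.0561% lower and 0.0748% higher of all genes in *tud* mutants and 0.112% and 0.168% in controls. Of all 10689 genes tested, 349 in *tud* mutants and 1067 in controls had an unadjusted p under 0.05 in limma. The subunit medians were below 0 in both, -0.30 in *tud* mutants and -0.38 in controls, with all-gene medians of -0.016 and 0.054. Without the 2 libraries that stand apart the medians were -0.20 in *tud* mutants and -0.55 in controls, with 0 genes called in either. Markers of other tissues moved with this comparison, and their part was not tested. Fat body markers (7 genes) summed to 2019 to 8693 FPKM in *tud* mutant female brain, against 521 to 688 FPKM in *tud* mutant male brain, and to 3083 to 7764 FPKM in control female brain, against 183 to 569 FPKM in control male brain. Yp1 and Yp2 made up most of the female sums and were at most 13.5 and 18.5 FPKM in male brain libraries. Within each genotype apolpp was higher in females as well. The gene fit was at 93.7 to 657 FPKM in female brain libraries and 2.65 to 21.6 FPKM in male brain libraries. The gene to overlapped between the sexes in both genotypes, and Lsp2 overlapped in controls. Whether the amount of fat body differed between the sexes was not tested. Haemocyte markers (4 genes) summed to 39.2 to 94.7 FPKM in *tud* mutant female brain, against 33.9 to 35.0 FPKM in *tud* mutant male brain, and to 94.6 to 99.9 FPKM in control female brain, against 28.0 to 40.3 FPKM in control male brain. In *tud* mutants 28 of 29 subunits had a difference below 0, against 5665 of all 10689 genes. In controls 21 of 29 had one, against 4642 of all genes. Subunits of a library can move together, so they are not independent. In *tud* mutant female brain replicate 3 all 29 lay above their group mean. Without control male brain replicate 1, *UQCR-11L* was called higher in control females. The subunit furthest below 0 in controls was *UQCR-C2* (-1.32, adjusted p = 0.366). Values as a share of protein-coding FPKM gave 10 lower and 57 higher of all genes in controls, against 12 and 18 as deposited. Within control male brain the 3 libraries scattered most, with a median coefficient of variation of 37.6% over the subunits, against 11.6% in control female brain, and *UQCR-11* was at 121 FPKM in control male brain replicate 2, against 948 and 1221 FPKM in the other 2.

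Other genes of mitochondrial respiration were read in the genotype comparisons as well. In brain, where 10.8% of all genes were lower and 14.2% higher, 17 of 35 complex I genes tested were lower and 1 was higher in *tud* mutants (median -0.59), 28 of 70 mitochondrial ribosomal proteins were lower and 0 higher (median -0.37), and RFeSP was the 1 lower gene among the 7 further subunits of complexes III to V (-0.80, limma adjusted p = 0.0178). The TCA cycle enzyme Mdh2 was lower (-0.56, adjusted p = 0.0214), as 1 of 10, and srl was higher (0.79, adjusted p = 0.0179), as 1 of 6 regulators, both near the share of all genes. In ovary, the 33 complex I genes tested had a median of -0.051 and the 70 mitochondrial ribosomal proteins a median of -0.033, and the assembly factor Coa7 rose by 0.44 (adjusted p = 0.00654).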

How the data were processed

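RNA was extracted by the authors with the mirVana kit, depleted of ribosomal RNA (TruSeq Stranded Total RNA with Ribo-Zero Gold), size-selected against 5S rRNA and tRNA, and sequenced on a NextSeq 500. Reads were mapped to dm6 with TopHat2 (2.0.13 in the submitters' processing notes, another version in the methods) guided by a BDGP6 annotation. The notes also name CASAVA, FastQC 0.10.1, Cufflinks and Cuffnorm 2.2.1, and the methods name Cuffdiff. The deposited values are FPKM per gene computed by the authors, 1 column for each of 18 libraries. Whether they were scaled between libraries and whether strand was used in counting is not given in the sources used here. FPKM sums ranged from 742402 to 3411767 and upper quartiles from 20.6 to 23.9.

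Values were transformed to log2(FPKM + 1) and tested with limma 3.58.1 (R 4.3.3), with variance trend, over all genes with a mean of at least 1 FPKM in the fit, two-sided, with Benjamini-Hochberg adjustment over all genes tested and a threshold of 0.05. Separate fits were made for 12 brain libraries (10689 genes), 6 ovary libraries (8254) and 12 libraries of female brain and ovary (10443). Of the 48 genes, 38, 35 and 36 were tested in them. Cuffdiff was not used, since it needs the reads. P-values measure the spread between libraries, each brain library being a pool. The fits were tested on simulated data. Tables and figures were made with Python 3.11.15, numpy 2.4.6, pandas 2.3.3 and matplotlib 3.10.9.

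Symbols and positions are those of Ensembl release 115 for that assembly, in which 17016 of 17288 identifiers were found. Rough depths came from the spacing of low FPKM values, over genes with 1 transcript of at least 1500 bases and an assumed fragment of 150 bases, with 97.5% to 99.7% of low values within 0.15 of a whole fragment. Of the genes, 4 share exonic bases with another gene on the same strand and 16 on the opposite strand, so their values can be mixed. The genes given in full were the highest of each complex, those called in ovary or for a difference between tissues or sexes, up to 3 per complex called in brain, and the L paralogs that reach 1 FPKM. The library values of *UQCR-11* were added after its values were seen. The genes and the lists of other genes were chosen with earlier results of these data known. Alternatives were another pseudocount (0.1), filter (none or 5 FPKM), scaling, threshold (0.01), the replicate number as a block, removal of the trend on gene span and leaving out each library. Alternatives limited to protein-coding genes, scaled to their sum, or without the 2 libraries that stand apart were chosen after seeing the data. No sequence is shown.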

Additional observations from a re-analysis of the deposited data

Results flagged for a closer look

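Among the genes of complexes II to V, 2 had a genotype difference that differed between ovary and female brain in a direct test. For *COX4L* the difference was larger in ovary by 1.53 on the log2(FPKM + 1) scale (limma adjusted p = 0.0472), and the 3 *tud* mutant ovary libraries lay above the 3 control ovary libraries. For *ATPsynepsilonL* it was larger by 2.95 (limma adjusted p = 0.00767), likewise in 3 of 3 libraries. *COX4L* reached the filter of 1 FPKM in this fit only through *tud* mutant ovary, and with no filter the adjusted p was 0.0458 for *COX4L* and 0.0197 for *ATPsynepsilonL*. Over the alternatives that could be fitted, the adjusted p ran from 0.0182 to 0.143 for *COX4L* and from 0.00120 to 0.0326 for *ATPsynepsilonL*.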

How the results depend on the processing

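In brain (9 genes called), leaving out each library gave 1 to 13 genes, values as a share of protein-coding FPKM 4, and an adjusted p of 0.01 gave 0. The subunit median became -0.13 with that share. In female brain (0 called), 1 gene was called without the 2 libraries that stand apart. In male brain (0 called), median-of-ratios scaling, removal of the gene span trend and protein-coding genes only gave 1 each (*UQCR-C2*), leaving out a library 0 to 9, and the median was -0.14 with quantile normalization and -0.048 as a share of protein-coding FPKM. For the sex difference of the genotype difference that share moved the median to -0.17, and between female and male control brains to -0.15, where leaving out a library gave 0 to 1 genes. In ovary (2 called) a mean of at least 5 FPKM left 1, since *COX4L* was not tested. For the tissue difference (2 called) a pseudocount of 0.1 gave 1, a mean of at least 5 FPKM 0, an adjusted p of 0.01 gave 1, and leaving out a library 1 to 3. Between ovary and female brain the subunit medians were -0.99 (quantile), -1.32 (span) and -1.49 (share of protein-coding FPKM) in controls, and -0.84 (quantile) and -1.02 (span) in *tud* mutants. Signs turned with quantile normalization in controls for *ATPsynbeta* (0.65), *ATPsynepsilonL* (0.79), *COX4L* (0.77), *COX5BL* (0.29) and *COX7CL* (1.28), and in *tud* mutants for *ATPsynbeta* (0.61), *COX5BL* (0.77) and *COX7CL* (1.35). They turned with the span trend removed in controls for *ATPsynepsilonL* (0.15), *COX4L* (0.060) and *COX7CL* (0.79), and in *tud* mutants for *COX7CL* (1.05). The cause was not tested in any of these.

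Same-numbered libraries did not all vary together. Correlations of their deviations were -0.16 to 0.37 over 18 pairs in brain (9 over 0.1, and 13 highest with their own number), -0.11 to 0.031 over 3 pairs in ovary (0 over 0.1) and -0.14 to 0.14 over 18 pairs of ovary and female brain (1 over 0.1). The main fits did not take the numbers to pair libraries, although most brain pairs were highest with their own number. With the replicate number as a block, 10 genes were called in brain, 2 in ovary, 30 between ovary and female brain in controls, 31 in *tud* mutants and 2 for the tissue difference. The rough depths limit the paralogs in brain, where most rest on few fragments, and the unknown scaling between libraries limits every comparison of tissues.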
